A study of Drosophila melanogaster with 24 samples.

Results

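The genes that encode neuropeptides and peptide hormones, the secreted signals of neurons and endocrine cells, were described here for their Cap-G ratio in 3 cell populations of the *Drosophila* larval brain. The 40 genes were chosen by name and not by a measured value, though with earlier results of these data known. All 40 matched a symbol in a gene table of Release 6. *Gpa2*, which encodes a glycoprotein hormone subunit, is placed there on an unplaced scaffold, so 39 genes had a value, among 13922 protein-coding genes on the 6 chromosome arms.

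Cap-G is a subunit of condensin I, the complex that compacts chromosomes for division, and its contacts with DNA were mapped by Targeted DamID. In this assay a bacterial adenine methyltransferase (Dam) fused to Cap-G marks GATC sites near the protein, and cells with unfused Dam serve as the control. The driver *wor-GAL4* marked neural stem cells (NSCs), *elav-GAL4* marked neurons of all ages (elav neurons) and *nSyb-GAL4* marked mature neurons (nSyb neurons), each with 2 samples of Cap-G-Dam (*UAS-Cap-G-Dam*) and 2 of Dam-only (*UAS-LT3-NDam*). Brains were taken at the third larval instar, 30 per sample, all from animals that carried *tub-GAL80ts* and were moved from 18°C to 29°C for 24 h to release the driver.

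The deposited value of each GATC fragment is log2(Cap-G-Dam/Dam), which the authors averaged over the 2 replicates of a driver, giving 3 tracks. No replicate values were available here, so no value below has an error and no difference was tested. The depth behind each fragment is unknown. Below, 3 values given in a row are for NSCs, elav neurons and nSyb neurons, in that order. A lower ratio can come from less Cap-G-Dam or from more Dam-only methylation, and the ratio alone cannot tell these apart. A track averages over all cells in which the driver is active, and binding ratios are not expression, so marker genes could not be used to check the identity of the cells.

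A neuropeptide is made as a longer precursor that is cut by prohormone convertases, often amidated, stored in dense-core vesicles and released to act mostly on G protein-coupled receptors. In insects many of these genes are active in small sets of identified neurons, and some act chiefly outside the brain: ETH is made by Inka cells on the trachea, and Akh by the corpora cardiaca. The larval peptides time moults, set water balance and feeding, and tune muscle, sleep and memory.

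The median annotated length of the genes was 2106 bp, close to the 2163 bp of all protein-coding genes, and they met a median of 6 GATC fragments, beside 11. In all 463 fragments met a listed gene, no fragment was shared between members, and 13 genes met fewer than 5 fragments. Another 13, in part the same genes, overlapped a neighbouring gene, whose signal could not be told apart from theirs in the shared stretch. By arm, 17 were on 3R, 9 on 2L, 6 on 2R, 6 on 3L and 1 on X.

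As a group the peptide genes sat close to the middle of the genome. Their median was 0.03 in NSCs, and 0.04 and 0.06 in elav and nSyb neurons, beside -0.00, 0.05 and 0.00 for all protein-coding genes. Values were above 0 for 24, 22 and 22 of the 39 genes (61.5%, 56.4% and 56.4%), beside 48.4%, 57.7% and 49.5% of all protein-coding genes. The spread around these medians was wide, from -0.71 to 0.55 in NSCs, from -1.15 to 0.55 in elav neurons and from -0.76 to 0.71 in nSyb neurons.

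**Figure D1:**
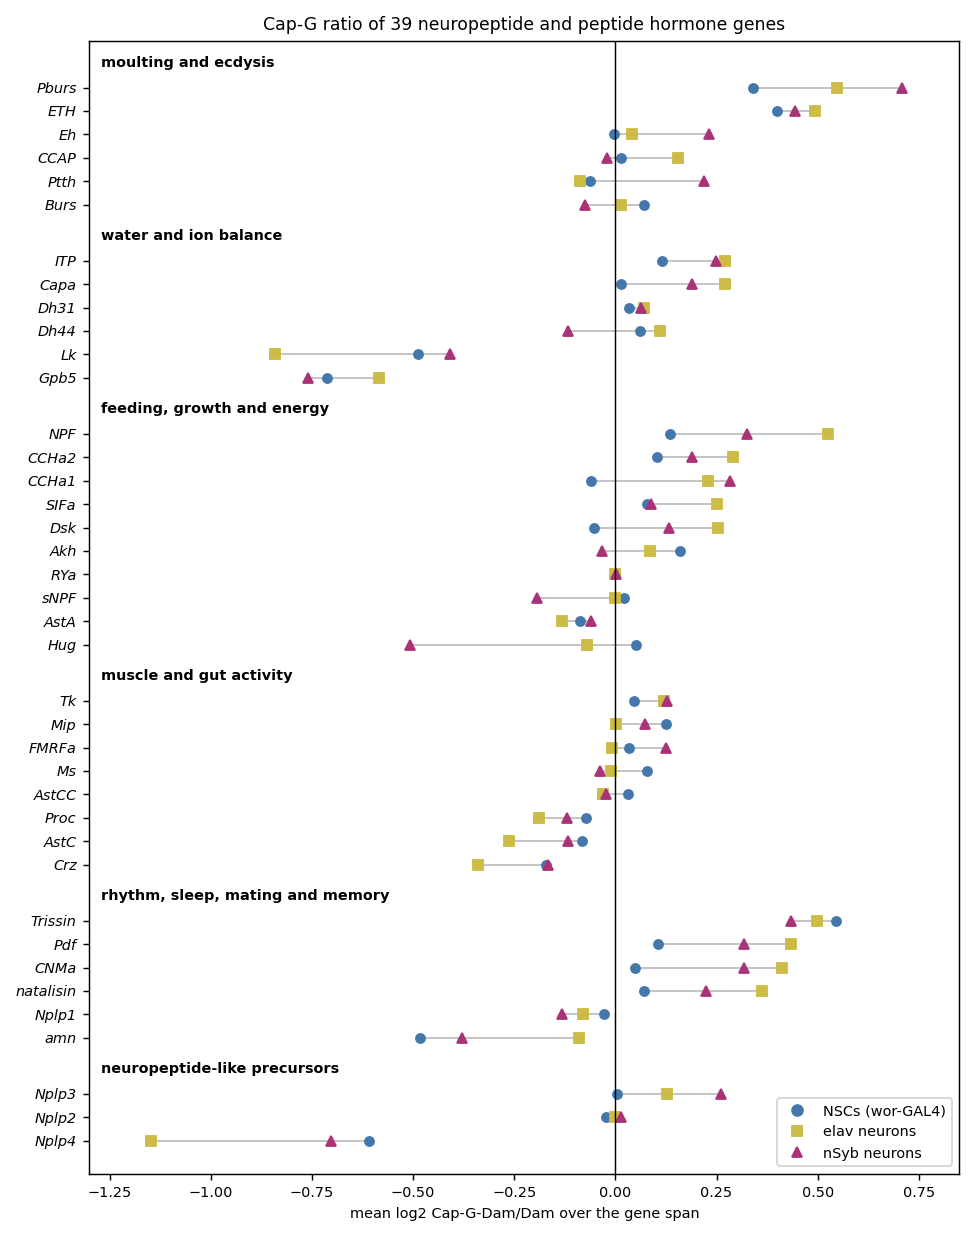
Mean log2 Cap-G-Dam/Dam ratio over the span of 39 neuropeptide and peptide hormone genes (x axis), grouped by the role of the peptide, with 1 point for each cell population (circle, NSCs; square, elav neurons; triangle, nSyb neurons) and no error bars because each point is 1 averaged track. Most genes lie near 0, *Pburs*, *ETH* and *Trissin* are above 0.3 in every track, and *Lk*, *Gpb5* and *Nplp4* are below -0.4 in every track.

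To compare tracks that were normalised separately, each gene was also given a scaled ratio, its value minus the median of protein-coding genes, divided by their median absolute deviation after the usual adjustment that sets it on the scale of a standard deviation. A gene was called high at a scaled ratio of at least 1 and low at -1 or below. The high peptide genes numbered 3 in NSCs and 7 and 8 in elav and nSyb neurons, where the background shares of all protein-coding genes were 15.6%, 16.5% and 15.8%. The low genes numbered 5 in each of the 3 tracks, with background shares of 19.8%, 17.8% and 17.2%. The same 3 genes were high in all tracks (*Pburs*, *ETH* and *Trissin*), the same 3 were low in all tracks (*Lk*, *Gpb5* and *Nplp4*), and 23 were neither high nor low in any. Of all protein-coding genes, 5.1% were high in all tracks, 7.6% low in all tracks and 42.3% neither in any. By sign, 15 peptide genes were above 0 in all 3 tracks (38.5%) and 9 below 0 in all 3 (23.1%), beside 31.9% and 26.7% of protein-coding genes.

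Among the 6 genes for moulting and ecdysis, the highest ratios belonged to a bursicon subunit and to ecdysis triggering hormone. *Pburs* (chr2L:14416729-14417331), which encodes the partner of Burs in the heterodimer that hardens and tans the new cuticle, had log2 ratios of 0.34 in NSCs and 0.55 and 0.71 in elav and nSyb neurons. These placed it at percentiles 96.3, 95.2 and 99.5 of protein-coding genes, and its nSyb value was the highest of all 39 genes. The value rested on 4 fragments. Ratios of the first 3 were 0.39, 0.38 and 0.28 in NSCs and 0.63, 0.62 and 0.54 in elav neurons. In nSyb neurons they were 0.86, 0.62 and 0.42. The nSyb ratio was thus above the elav ratio only in the first. It was level in the second, which is 9 bp long, and lower in the third. The last of the 4, a 1338 bp fragment that runs beyond the gene, was below 0 in every track, at -0.07, -0.26 and -0.24. The high ratio of *Pburs* was therefore narrow, and with 5 kb added on each side the mean was below 0 in all 3 tracks (-0.05, -0.17 and -0.04). Its nearest annotated neighbours are 6684 and 6984 bp away.

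*Burs* (chr3R:21769518-21770279; 3 fragments), the other subunit of bursicon, did not share these ratios. Its values were 0.07, 0.01 and -0.07, at percentiles 69.2, 44.5 and 38.0. The subunits thus differed most in nSyb neurons, where *Pburs* had a scaled ratio of 2.76 and *Burs* one of -0.29.

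*ETH* (chr2R:24794670-24795482), whose hormone starts the ecdysis sequence, had log2 ratios of 0.40, 0.49 and 0.44, at percentiles 97.9, 93.5 and 95.9. All 6 of its fragments were above 0 in NSCs and nSyb neurons and 5 of 6 in elav neurons, with the highest single fragment at 0.77, 0.75 and 0.90. The antisense gene *asRNA:CR43257* overlaps *ETH* and had like values (0.41, 0.44 and 0.42). The neighbour *Reg-5*, 1260 bp away at lower coordinates, had 0.40, 0.48 and 0.40, so the high ratio was not confined to *ETH*. On the other side *Orc4*, 258 bp away, had 0.13, 0.03 and 0.19. The 5 kb flank at lower coordinates had means of 0.38, 0.46 and 0.37, and the other flank 0.15, 0.065 and 0.38.

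The other genes of this group were nearer 0 in NSCs and differed by track. *Ptth* (chr2L:575711-576896), for the brain hormone that drives ecdysone synthesis in the prothoracic gland, had log2 ratios of -0.06 in NSCs and -0.09 and 0.22 in elav and nSyb neurons, with 5, 5 and 9 of its 9 fragments above 0. The first fragment, shared with *cold*, stood at -0.86, -0.30 and 0.73, and the last, which covers more of the gene, at 0.06, -0.57 and 0.16. *Eh* (4 fragments), for eclosion hormone, had -0.00, 0.04 and 0.23. *CCAP*, for the cardioactive peptide of the ecdysis motor programme, had 0.01, 0.16 and -0.02.

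Water and ion balance genes split into 2 very low genes and 4 that were near 0 or above. *Gpb5* (chr2L:23311700-23312464), for the beta subunit of the glycoprotein hormone whose alpha subunit is Gpa2, was the lowest peptide gene in NSCs and nSyb neurons. Its log2 ratios were -0.71, -0.58 and -0.76, at percentiles 1.5, 5.1 and 1.9. It met 2 fragments, of which 1 was only slightly below 0 (-0.12, -0.23 and -0.26) and the other far below (-1.12, -0.83 and -1.10). The low value of *Gpb5* thus came from a single 492 bp fragment. *Tim23*, 1 bp away and in small part on the same 492 bp fragment, had -0.28, -0.22 and -0.33.

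*Lk* (chr3L:14560139-14560764), for leucokinin, which promotes fluid secretion by the Malpighian tubules, had log2 ratios of -0.49, -0.84 and -0.41, at percentiles 4.0, 2.0 and 8.5. All 4 fragments of *Lk* were below 0 in every track, from -0.59 to -0.33 in NSCs, from -1.10 to -0.47 in elav neurons and from -0.75 to -0.24 in nSyb neurons. The low ratio of *Lk* was thus shared by the whole gene, unlike that of *Gpb5*. *Lk* lies within *CG34039*, which had -0.25, -0.32 and -0.02.

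*ITP* (chr2R:24537421-24558961), for ion transport peptide, an antidiuretic hormone, met the most fragments of all members, 107. Its log2 ratios were 0.12, 0.27 and 0.25, at percentiles 77.3, 77.9 and 83.5, and 85, 87 and 96 of its fragments were above 0. The ratios of *ITP* were moderate but came from most of its length, where those of *Pburs* came from under 1 kb. *ITP* is overlapped by *CG4622*, with 0.14, 0.27 and 0.26. Of the diuretic hormone genes, *Dh31* had 0.03, 0.07 and 0.06 over 22 fragments, *Dh44* had 0.06, 0.11 and -0.12 over 24, and *Capa* had 0.01, 0.27 and 0.19 over only 2.

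Among the 10 genes for feeding, growth and energy, 1 was high in elav neurons (*NPF*), 2 were high in nSyb neurons (*NPF* and *CCHa1*) and 1 was low there (*Hug*). *NPF* (chr3R:16609220-16611325), whose peptide promotes feeding, had log2 ratios of 0.14 in NSCs and 0.53 and 0.33 in elav and nSyb neurons, at percentiles 80.3, 94.7 and 89.8. The difference between NSCs and neurons was largest at 1 end of the gene: its seventh and last fragment, 384 bp long, was at 0.14 in NSCs and 1.60 and 1.17 in elav and nSyb neurons.

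*CCHa1* (chr3R:14092504-14096835), for a peptide of brain and gut, had log2 ratios of -0.06, 0.23 and 0.28, and so was below 0 in NSCs and above 0 in both neuronal tracks. Its sixth of 12 fragments, 408 bp long, was at -0.26, 0.37 and 0.92. *CCHa2*, for a related peptide that reports nutrients to the insulin-producing cells, was above 0 in every track (0.10, 0.29 and 0.19). *Dsk* (chr3R:4189692-4190260), for the satiety peptide drosulfakinin, had -0.05, 0.25 and 0.13.

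*Hug* (chr3R:12526188-12529076), for hugin, a pyrokinin that suppresses feeding, went the other way from *CCHa1*. Its log2 ratios were 0.05 in NSCs and -0.07 and -0.51 in elav and nSyb neurons, at percentiles 65.2, 31.9 and 5.4. All 4 of its fragments were below 0 in nSyb neurons, and 1 of them (379 bp) was at 0.30 in NSCs and 0.06 and -1.38 in elav and nSyb neurons. *Hug* lies inside the octopamine receptor gene *Octbeta3R*, which had a ratio of -0.14 in nSyb neurons over its whole length.

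*Akh* (chr3L:4141467-4142070; 4 fragments), for the hormone that mobilises fat, had log2 ratios of 0.16, 0.09 and -0.03. The tracks differed most at 1 end of the gene: the first fragment, 610 bp long, was at -0.01, -0.13 and -0.30, while the last, 382 bp long, was at 0.51, 0.53 and 0.53. *SIFa*, a peptide of feeding and mating, had 0.08, 0.25 and 0.09 over 3 fragments. *AstA*, whose peptide inhibits feeding, was below 0 in every track (-0.09, -0.13 and -0.06). *sNPF*, for a peptide that promotes feeding and growth, had 0.02, -0.00 and -0.19 over 47 fragments. *RYa*, for RYamides, met 1 fragment, listed at 0.000, 0.000 and 0.001, and lies 56926 and 252520 bp from its nearest neighbours.

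The 8 genes of muscle and gut activity kept within a narrow range, from -0.34 to 0.13 over the 3 tracks. None was high in any, where the background shares were 15.6%, 16.5% and 15.8%. *Crz* (chr3R:14314854-14315716), for corazonin, a peptide of stress and metabolism, was the lowest of them, with log2 ratios of -0.17, -0.34 and -0.17. In elav and nSyb neurons *Crz* had a slope across its 5 fragments, from 0.05 and 0.36 in the first to -0.85 and -0.90 in the last, while in NSCs they lay between -0.21 and -0.13. With 5 kb added on each side, the elav value of *Crz* changed sign to 0.06.

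*AstC*, for allatostatin C, was low in elav neurons, with -0.08, -0.26 and -0.12, and its neighbour and paralogue *AstCC* had 0.03, -0.03 and -0.02. *Mip*, for myoinhibitory peptide, had 0.12, 0.00 and 0.07. *Proc*, for proctolin, which excites muscle, was below 0 in every track (-0.07, -0.19 and -0.12), and *Tk*, for tachykinin, above 0 in every track (0.05, 0.12 and 0.13 over 33 fragments). *FMRFa* had 0.03, -0.01 and 0.12, and *Ms*, for myosuppressin, 0.08, -0.01 and -0.04. On the scaled ratio all 8 were lower in elav neurons than in NSCs and all 8 were higher in nSyb neurons than in elav neurons, each by less than 1 unit, and the 2 comparisons share the elav track. Of all protein-coding genes, 52.5% were higher in elav neurons than in NSCs and 48.2% higher in nSyb than in elav neurons. The directions were not uniform on the log2 scale, where *Tk* was higher in elav neurons than in NSCs and *Ms* lower in nSyb than in elav neurons.

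The 6 genes of rhythm, sleep, mating and memory had the highest median of any role in elav neurons (0.39), beside 0.06 in NSCs and 0.27 in nSyb neurons. *Trissin* (chr3R:15484730-15485396), for a cysteine-rich peptide, was the highest peptide gene in NSCs. Its log2 ratios were 0.55, 0.50 and 0.43, at percentiles 99.5, 93.7 and 95.4. They came from its first 3 fragments, the second of which was at 1.02, 0.84 and 0.73, and the last 2, 80 and 1125 bp long, were below 0 in each track. *Trissin* lies 31 bp from the rhodopsin gene *Rh6*, which had 0.31, 0.57 and 0.37.

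*Pdf* (chr3R:26455462-26456141), for pigment-dispersing factor, the output signal of clock neurons, had log2 ratios of 0.11, 0.43 and 0.32, with all 3 of its fragments above 0 in every track. *CNMa* (chr3L:1850915-1855591), for CNMamide, had 0.05, 0.41 and 0.32 over 15 fragments, and *natalisin*, for a peptide of mating behaviour, had 0.07, 0.36 and 0.22 over 16. In *Pdf*, *CNMa* and *natalisin* alike the order on the log2 scale was elav neurons, then nSyb neurons, then NSCs. Peptide genes of other roles had this order too, among them *NPF*, *CCHa2*, *ITP* and *ETH*. *natalisin* lies inside *cv-c*, which was at -0.01, 0.47 and 0.10.

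*amn* (chrX:19886108-19890060), the *amnesiac* gene of olfactory memory and the only X-linked member, had log2 ratios of -0.48 in NSCs and -0.09 and -0.38 in elav and nSyb neurons. These were percentiles 4.1, 29.7 and 9.6. Its last fragment, 859 bp long, was far below 0 in every track (-1.77, -1.73 and -0.81), whereas the 348 bp fragment near its middle differed in sign, at -0.85, 0.30 and -0.34. *amn* is nested in *Hers*, whose own mean was nearer 0 (-0.09, -0.05 and -0.11). *Nplp1*, for peptides of clock neurons, was below 0 in every track at -0.03, -0.08 and -0.13.

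The 3 other neuropeptide-like precursors differed. *Nplp4* (chr2L:2008414-2009072) was the lowest peptide gene in elav neurons, with log2 ratios of -0.61, -1.15 and -0.70, at percentiles 2.4, 0.6 and 2.4. It lies within 1 fragment of 836 bp. The next gene, *tRNA:Gln-CTG-2-2*, 83 bp away and in part on the same fragment, was lower still (-0.86, -1.33 and -1.07). *Nplp3* had 0.00, 0.13 and 0.26 over 5 fragments, and *Nplp2* -0.02, -0.00 and 0.01 over 1 fragment.

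**Figure D2:**
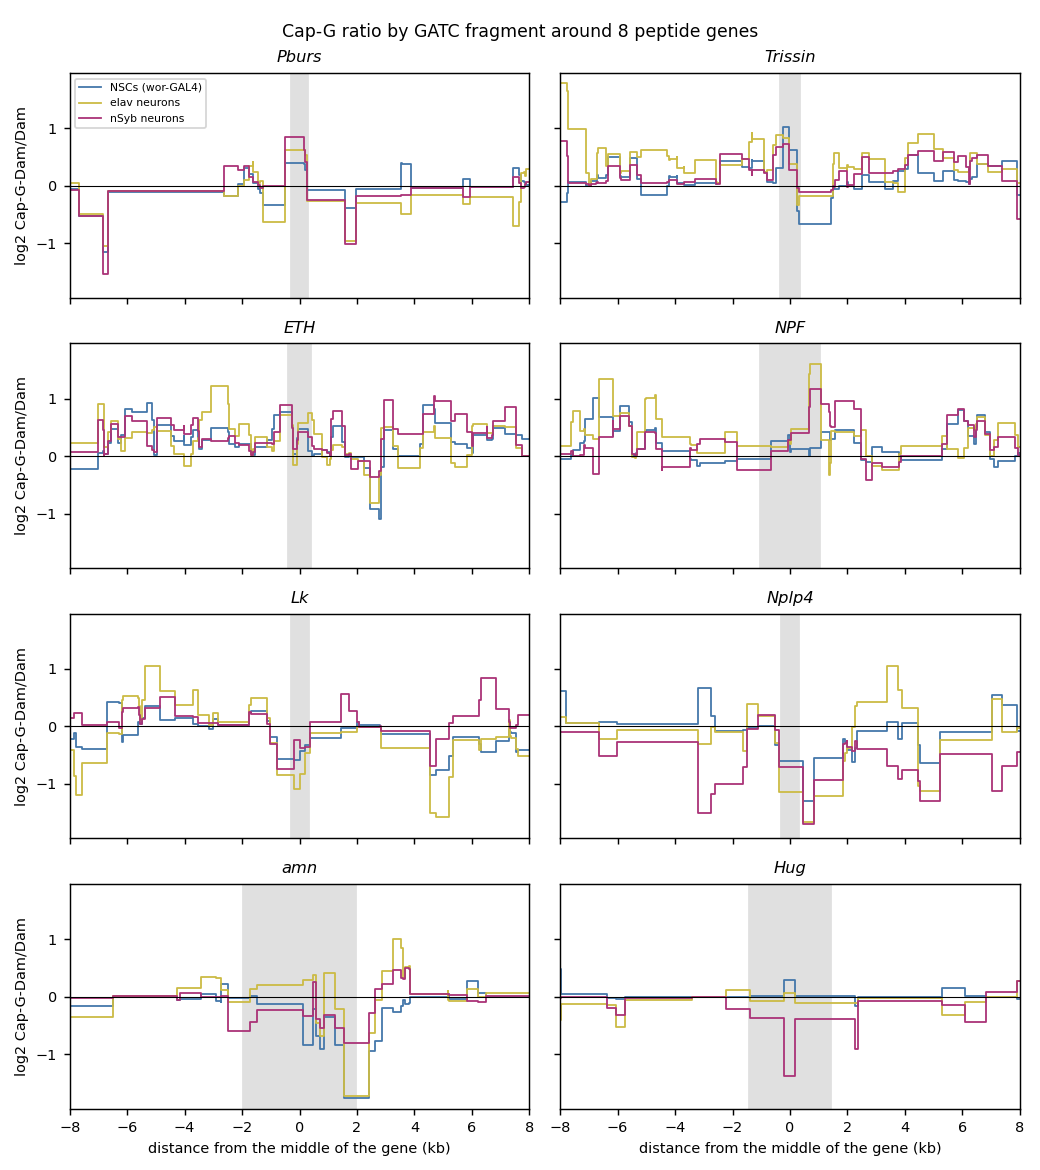
Log2 Cap-G-Dam/Dam ratio of each GATC fragment (y axis) within 8 kb of the middle of 8 peptide genes (x axis, kb; grey, the gene), with 1 line for each cell population and 1 averaged track per line. At *Pburs* the high ratio ends close to the gene. At *ETH* it extends beyond the gene, in NSCs and elav neurons mainly towards lower coordinates. *Lk* and *Nplp4* lie in dips shared by the 3 tracks, and the dip to -1.38 in *Hug* is in nSyb neurons alone.

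The genes with few fragments spread further than the rest in both neuronal tracks but not in NSCs. In nSyb neurons the 13 genes with fewer than 5 fragments ran from -0.76 to 0.71, and the 26 with at least 5 ran from -0.38 to 0.44. In elav neurons the ranges were -1.15 to 0.55 and -0.34 to 0.53, and in NSCs -0.71 to 0.34 and -0.48 to 0.55. The 13 held 4 of the 5 low genes in nSyb neurons and 3 of the 5 in each of the other tracks. Of the 6 genes that were high or low in all 3 tracks, only *ETH* and *Trissin* met at least 5 fragments.

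Between NSCs and elav neurons, 3 peptide genes were higher by at least 1 scaled unit and 1 was lower, with background shares of 16.3% and 12.1% of all protein-coding genes. *amn* was higher by 2.43 scaled units, *Gpb5* by 2.05 and *Dsk* by 1.04, and *Trissin* was lower by 1.71 (a scaled difference of -1.71). For *Gpb5* and *Trissin* the log2 ratios were close (-0.71 and -0.58, 0.55 and 0.50). Their scaled differences came largely from the wider spread of the elav track, whose unit was 0.28 on the log2 scale, beside 0.17 in NSCs and 0.26 in nSyb neurons. The next lowest differences, of *Mip* (-0.93) and *ETH* (-0.85), did not reach 1 unit. Over all 39 genes the median scaled difference was -0.14, beside 0.06 for protein-coding genes, and 14 (35.9%) were higher, beside 52.5%. With 5 kb added on each side this median scaled difference was 0.017. On the log2 scale the median of the 39 genes was not lower in elav neurons (0.04) than in NSCs (0.03). The direction thus depended on the scaling, which subtracts the protein-coding median of each track (0.05 in elav neurons and -0.00 in NSCs). *RYa*, at 0.000 in both tracks, counted as lower.

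Between elav and nSyb neurons, 3 were higher and 1 was lower, with background shares of 12.5% and 12.5%. *Lk* was higher by 1.59 scaled units, *Nplp4* by 1.53 and *Ptth* by 1.35. The first 2 remained low in nSyb neurons, and only *Ptth* moved to above 0, which depended on the summary, since its elav value was 0.006 with the unweighted median of fragments and 0.14 with 5 kb added. *Hug* was the gene that was lower, with a scaled difference of -1.55, and *amn* (-0.98) and *Gpb5* (-0.70) followed. The median scaled difference of the 39 genes was 0.15, beside -0.04 for protein-coding genes, and 22 (56.4%) were higher, beside 48.2%.

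Between NSCs and nSyb neurons, 5 peptide genes were higher and 3 were lower by at least 1 scaled unit, with background shares of 14.1% and 11.1%. The higher genes were *CCHa1* (1.47), *amn* (1.44), *Lk* (1.36), *Gpb5* (1.35) and *Ptth* (1.23). Of these, *amn*, *Lk* and *Gpb5* were below -0.3 on the log2 scale in both tracks, and the log2 ratio of *Gpb5* was lower in nSyb neurons than in NSCs (-0.76 and -0.71), the opposite of its scaled ratio, whose unit is wider in nSyb neurons. Only *CCHa1* and *Ptth* passed from below to above 0. The lower genes were *Hug* (-2.30), *Trissin* (-1.61) and *Akh* (-1.10), of which *Hug* and *Akh* passed from above to below 0 and *Trissin* was high in both. Of these 4 changes of sign only that of *Hug* held under every summary tried: with the unweighted median of fragments *Ptth* and *CCHa1* were slightly above 0 in NSCs (0.016 and 0.013) and *Akh* was at 0.23 in nSyb neurons. The median scaled difference was 0.21, beside 0.04 for protein-coding genes, and 24 (61.5%) were higher, beside 52.0%.

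**Figure D3:**
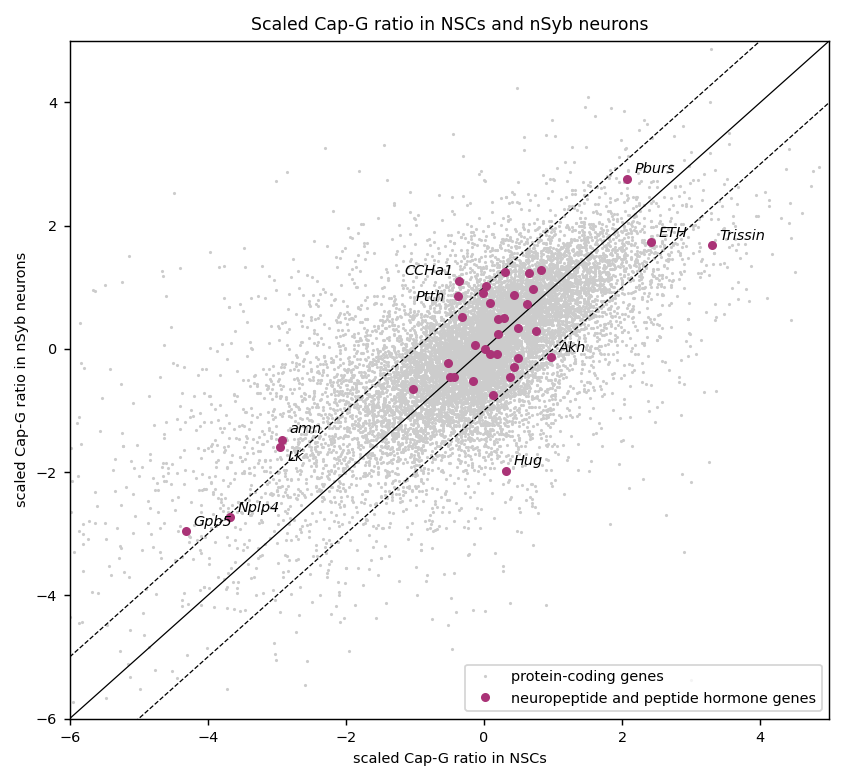
Scaled Cap-G ratio in NSCs (x axis) and in nSyb neurons (y axis), with 1 large point for each of 39 peptide genes and 1 grey point for each protein-coding gene within the axes. The solid line is equality and the dashed lines are 1 scaled unit from it; the 5 peptide genes above the upper line include *CCHa1* and *Ptth*, and *Hug*, *Trissin* and *Akh* are below the lower one.

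The order of the genes was similar across tracks, as a description over 39 genes that share their sequence and fragment lengths. Spearman's rho was 0.76 for NSCs with elav neurons, 0.86 for the 2 neuronal tracks and 0.59 for NSCs with nSyb neurons. Over all protein-coding genes these were 0.64, 0.63 and 0.65.

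A gene was called bound where a region of enriched fragments overlapped it or lay within 5 kb with no other gene reaching into the gap. Regions were runs of at least 2 fragments above a quantile of the track, called on the averaged track at an FDR of 0.01%. By this rule the bound peptide genes numbered 1 for NSCs and 2 for each neuronal track, with background shares of 7.84%, 10.5% and 9.39% of protein-coding genes. At an FDR of 1% they numbered 6, 7 and 10, with background shares of 24.0%, 25.3% and 26.0%, and 14 genes (35.9%) were bound in at least 1 track, beside 43.2% of protein-coding genes. These 14 included *ETH* (NSCs and nSyb neurons), *CCAP* (elav and nSyb neurons), *Pdf* (nSyb neurons) and *Mip* (NSCs and nSyb neurons). *Pburs* and *Trissin* were not among them despite their high means, which came from 3 fragments each.

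*ITP* was the gene bound in all 3 tracks. In NSCs its region (chr2R:24546560-24548500) held 10 fragments with a mean of 0.34, and in nSyb neurons a region in the same place (chr2R:24546304-24548500) held 12 with a mean of 0.51. In elav neurons the 2 regions were elsewhere. One (chr2R:24540449-24542620) lay within the gene and held 11 fragments with a mean of 0.71. The other (chr2R:24558908-24560049), with 8 fragments and a mean of 0.82, overlapped only the end of *ITP* (at 24558961) and lay mostly in *Nurf-38*. At an FDR of 1% a region overlapping the NSC one was also called in elav neurons (chr2R:24546158-24547256, 7 fragments, mean 0.72).

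*NPF* was bound in nSyb neurons, where a region (chr3R:16610207-16612753) of 11 fragments had a mean of 0.77 and ran from within the gene into the neighbour *CG12783*. In NSCs an overlapping region of 7 fragments with a mean of 0.33 was called only at 1%. In elav neurons no region overlapped *NPF* at either level, although its last fragment was higher there than in nSyb neurons. *CNMa* was bound in elav neurons by a region (chr3L:1853416-1857323) of 13 fragments with a mean of 0.69, and in nSyb neurons at 1% only, by 5 fragments with a mean of 0.41.

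**Figure D4:**
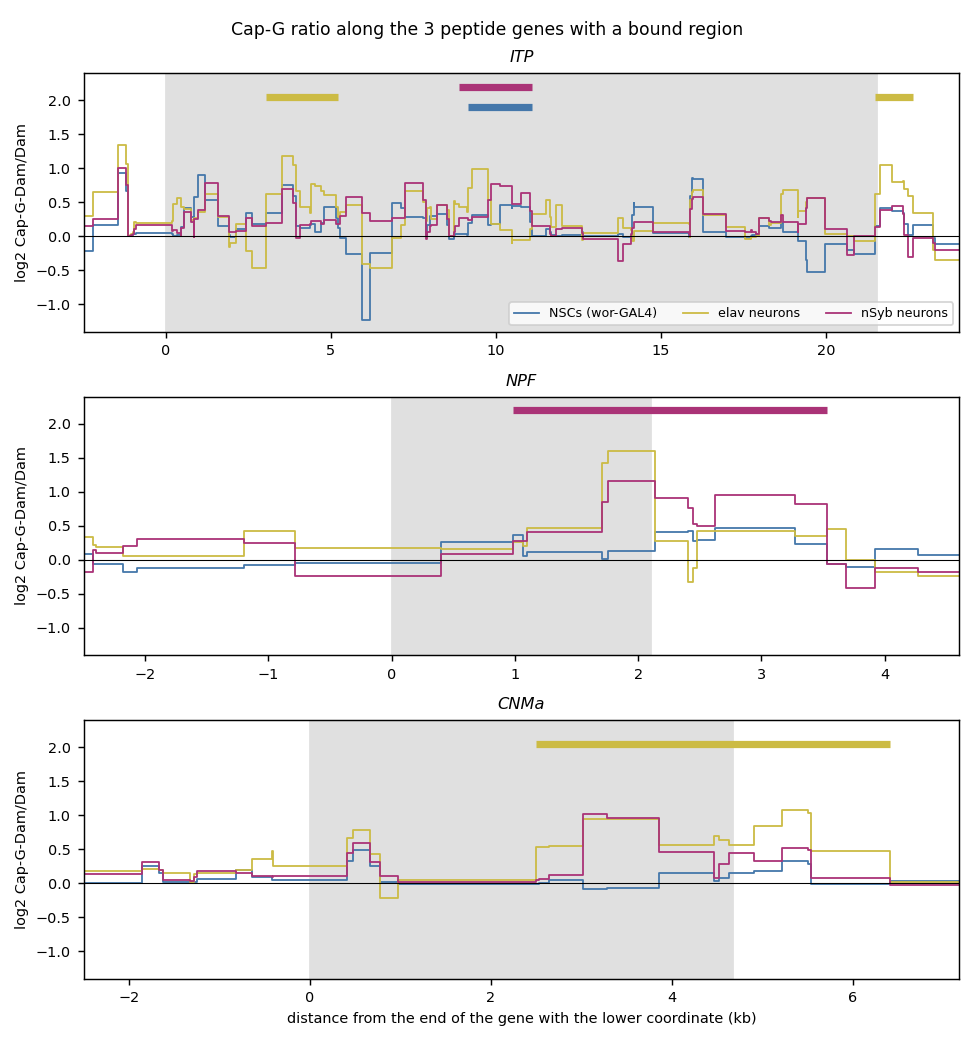
Log2 Cap-G-Dam/Dam ratio of each GATC fragment (y axis) along *ITP*, *NPF* and *CNMa* (x axis, kb from the end with the lower coordinate; grey, the gene), with 1 line for each cell population; thick bars above are the regions called at an FDR of 0.01% in the track of that colour. In *ITP* the NSC and nSyb bars overlap and the 2 elav bars lie elsewhere, in *NPF* the bar is of nSyb neurons and in *CNMa* of elav neurons.

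The count of bound genes depended on how intervening genes were treated. Where only a gene lying wholly in the gap was taken to intervene, the counts were 5 for NSCs, 4 for elav neurons and 7 for nSyb neurons, with background shares of 14.1%, 17.0% and 15.5%. The genes added were *CCAP*, *NPF*, *AstCC* and *FMRFa* in NSCs, *FMRFa* and *natalisin* in elav neurons, and *ETH*, *CCAP*, *Dsk*, *AstCC* and *Trissin* in nSyb neurons. Their regions lay between 1368 and 4722 bp from the gene.

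Outside the genes, the flanks within 5000 bp of the peptide genes were above 0 more often in the neuronal tracks than in NSCs. From 1000 to 2000 bp on either side, the median was 0.02 in NSCs and 0.16 and 0.10 in elav and nSyb neurons, beside -0.01, 0.03 and -0.00 for protein-coding genes. The mean of this window was above 0 at 53.8%, 79.5% and 76.9% of peptide genes, beside 44.2%, 55.0% and 48.5%. From 2000 to 5000 bp the peptide medians were 0.01, 0.09 and 0.08, beside -0.01, 0.05 and 0.00 for protein-coding genes. From 5000 to 10000 bp the peptide medians were 0.04, 0.09 and 0.05, beside -0.01, 0.04 and -0.01. In this farthest window 24 of 39 peptide genes were above 0 in NSCs (61.5%) and 23 in each neuronal track (59.0%). The shares of protein-coding genes there were 44.3%, 57.3% and 47.8%. Within 1000 bp of the gene the peptide medians were -0.00, 0.04 and 0.02, the lowest of the 4 windows in every track. For protein-coding genes too this window was the lowest in every track (-0.05, -0.01 and -0.04). The gene table used holds no strand, so the 2 sides were pooled.

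The receptors of these peptides, a list of 38 genes also chosen with earlier results of these data known, are mostly G protein-coupled receptors. They had median log2 ratios of 0.03 in NSCs and 0.07 and -0.16 in elav and nSyb neurons, with 32, 28 and 11 of 38 above 0, where 48.4%, 57.7% and 49.5% of protein-coding genes were. Between NSCs and nSyb neurons 35 of 38 receptors were lower on the scaled ratio, 15 of them by at least 1 unit and none higher by 1 unit, with a median difference of -0.86 and background shares of 11.1% lower and 14.1% higher. For the 39 peptide genes that median was 0.21, with 15 lower. The 2 lists also differed in length. The median receptor gene was 17378 bp long and met 27.5 fragments, beside 6 for the peptide genes. On the scaled ratio the receptors that were lower numbered 4 of 4 at 1 to 5 kb, 11 of 11 at 5 to 15 kb and 20 of 23 at 15 kb or more. Of protein-coding genes of these lengths 48.5%, 46.4% and 51.8% were lower. Of the peptide genes, 5 of 15 were lower at 1 to 5 kb and 3 of 7 at 5 to 15 kb, with median scaled differences of 0.43 and 0.04, beside -0.10 and -1.06 for receptors of those lengths. On the log2 scale, however, the 4 receptors of 1 to 5 kb were higher in nSyb neurons (0.36 to 0.49) than in NSCs (0.29 to 0.33). Their lower scaled ratios came from the wider unit of the nSyb track.

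**Figure D5:**
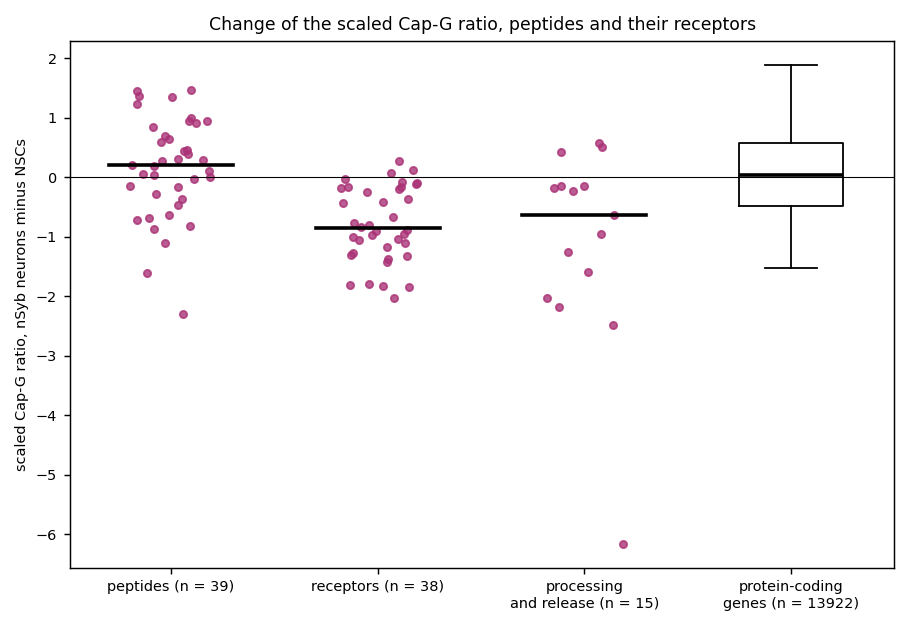
Difference in scaled Cap-G ratio, nSyb neurons minus NSCs (y axis), for 39 peptide genes, 38 receptor genes and 15 processing and release genes (points, with a bar at the median), beside the box of 13922 protein-coding genes (median and quartiles, whiskers at the 5th and 95th percentiles). The medians are 0.21 for peptides, -0.86 for receptors and -0.64 for processing genes.

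The receptors with the highest ratios were short genes. *tor*, the receptor tyrosine kinase for Ptth, had log2 ratios of 0.33, 0.70 and 0.49, the highest receptor value in each track, and its span is 4002 bp. *AkhR*, the receptor of Akh, had 0.30, 0.59 and 0.43 and was bound in all 3 tracks. *CapaR*, the receptor of Capa peptides, had 0.30, 0.27 and 0.46. The lowest receptor values were those of *Gyc76C* (-0.03) and *TrissinR* (-0.03) in NSCs, of *CCKLR-17D3* (-0.17) and *Dh31-R* (-0.13) in elav neurons, and of *PK2-R2* (-0.49) and *Dh31-R* (-0.41) in nSyb neurons. At *Gyc76C* 79 of 114 fragments were listed at 0 in all 3 tracks, and at *TrissinR* 17 of 44, which brings their means nearer 0. *ETHR* had the largest scaled decline of the 38 (-2.03), with 0.15, 0.43 and -0.29, where *ETH* itself was at 0.40, 0.49 and 0.44.

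Over 38 pairs of peptide and receptor genes, the peptide genes and their receptors were not ordered alike. Spearman's rho over the pairs, some of which share a gene, was -0.04 in NSCs and -0.08 and -0.03 in elav and nSyb neurons. Both genes were above 0 in 20, 15 and 4 pairs, and the peptide gene had the higher percentile in 19, 19 and 26. Among single pairs, *Trissin* and *TrissinR* lay far apart in every track, whereas *Akh* and *AkhR* differed in sign in nSyb neurons alone (-0.03 and 0.43).

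The 15 genes of peptide processing and release had median log2 ratios of -0.04, -0.05 and -0.20, and 14 of 15 were below 0 in nSyb neurons. Between NSCs and nSyb neurons 6 of them were lower by at least 1 scaled unit and none higher, beside 11.1% and 14.1% of protein-coding genes. *7B2*, whose product assists the prohormone convertase, had -0.10, -0.79 and -1.74 over 3 fragments, the lowest value of the list in elav and nSyb neurons. *amon*, for that convertase, had -0.02, -0.28 and -0.60 over 25 fragments, and *Pal2*, for an amidation enzyme, had 0.06, 0.14 and -0.55. *Syt4* was at -0.34 in elav neurons. *Cadps* (-0.18) and *Pal1* (-0.12) were lowest in NSCs, where *Sytalpha* (0.24) and *Pal2* were highest. *dimm*, for the transcription factor of neuroendocrine cells, was the only gene of the list above 0 in nSyb neurons, at 0.21, and had 0.05 and 0.19 in the other tracks. *Sytbeta* was next in nSyb neurons, at -0.02.

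The 8 insulin-like peptide genes, which were listed apart from the 39, had medians of 0.20, 0.07 and 0.13. For 18 genes of synaptic vesicle release the medians were -0.02, 0.03 and -0.15. The nSyb median was thus below 0 for receptors, processing genes and synaptic vesicle genes, and above 0 for the peptide genes and the insulin-like peptide genes. The genes of the last 2 lists were shorter (median 2106 and 844 bp) than those of the first 3 (17378, 10400 and 14275 bp). At 5 to 15 kb the nSyb medians were -0.116 for 7 peptide genes, -0.195 for 11 receptors and 0.003 for protein-coding genes. Whether length accounts for the split between lists was not tested.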

How the data were processed

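Targeted DamID of Cap-G covered 12 samples, with 2 Cap-G-Dam and 2 Dam-only samples per driver. The authors aligned the reads to BDGP6 with Bowtie2, counted them per GATC fragment and took the ratio to Dam-only. The deposited values are log2 ratios averaged by the authors over replicates, 373710 fragments per track with a median length of 196 bp. The rule of averaging and the tool versions: not given in the sources used here. All columns of sample values were assigned (0 unused). The 12 RNA-seq samples were not analysed here.

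Gene values are means over the annotated span (gene table of Release 6, without strand or exons) weighted by overlap with each fragment. Scaled ratios, percentiles and background shares were computed over protein-coding genes. Regions were called at quantiles 0.80, 0.85, 0.90, 0.95 and 0.99 (and at least 0), with the expected number of runs taken from fragments in random order. On simulated tracks of shuffled fragments the caller recovered planted runs of high fragments, but false calls were not counted. Shuffling removes any likeness between neighbouring fragments, which the expected number of runs also leaves out. No test between groups was possible, since each group has 1 averaged track. The members, roles and lists were chosen with earlier results of these data known. Described in full were the 4 highest and 4 lowest genes of each track, the 3 largest differences in each direction between tracks, bound genes and genes that changed sign by over 1 scaled unit; of receptor and processing genes, the 2 highest and 2 lowest of each track. Other genes named were chosen after their values were seen. Alternatives were another summary of fragments, 5 kb flanks, fragment filters and other region rules. Software was matplotlib 3.10.9, scipy 1.17.1, pandas 2.3.3 and numpy 2.4.6 under Python 3.11.15.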

Additional observations from a re-analysis of the deposited data

How the results depend on the processing

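Gene values were recomputed from the unweighted median of fragments, with 5 kb added on each side, without fragments at 0 in all 3 tracks and from fragments of 200 to 2000 bp. With 5 kb added, *Pburs* changed sign in NSCs (-0.05), elav neurons (-0.17) and nSyb neurons (-0.041), as did *Crz* in elav neurons (0.06). In all 21 of 117 values changed sign with 5 kb added, 14 with the unweighted median, 3 with the length filter and 0 without the fragments at 0; among them were *Ptth* in elav neurons (0.14), *CCAP* in nSyb neurons (0.36) and *Burs* in elav neurons (-0.09) with 5 kb added. Beside the 4 values of *Pburs* and *Crz*, 69 moved by over 0.05 on the log2 scale with 5 kb added, 59 with the unweighted median, 19 with the length filter and 0 without the fragments at 0. The median of the peptide genes in elav neurons moved to 0.13 with the unweighted median. The median scaled difference moved to 0.017 for elav neurons against NSCs with 5 kb added, and with the unweighted median to 0.27 for nSyb against elav neurons and 0.42 for nSyb neurons against NSCs. Bound genes numbered 6, 7 and 10 at an FDR of 1%. With quantiles of 0.90 and above, 0 were bound in NSCs. With only genes wholly in the gap intervening, a rule added after seeing the data, they numbered 5, 4 and 7. No paired analysis was possible because the deposited tracks are averages over replicates, and for the same reason no replicate could be left out.

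Depth limits could not be given, since the tracks hold no counts. Values from fewer than 5 fragments rest on few restriction fragments, and overlapping or nested genes share them.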
